A study of Mus musculus with 6 samples.

Results

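The 10 genes described here are the nuclear effectors of the Hippo pathway and 4 of the genes they are best known to switch on. They were taken by name from the 52550 genes of the expression table, and each matched exactly 1 row. The effectors are the coactivator genes Yap1 (YAP) and Wwtr1 (TAZ) and the 4 TEAD transcription factor genes Tead1, Tead2, Tead3 and Tead4. The targets are Ctgf (also called Ccn2), Cyr61 (also called Ccn1), Ankrd1 and Amotl2.

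RNA was sequenced from GFP-positive cells of Sox9-GFP embryos on the CD-1 background, sorted from dissociated livers after magnetic removal of blood cells. Each stage, E16.5 and E18.5, was represented by 3 libraries (replicates A to C), each made from 15 pooled livers, and both stages carried the same reporter. The sample labels write the stages as embryonic days 16 and 18. The gate takes any cell in which the Sox9 reporter is active, whatever its type, and the sources do not say whether the pools of a stage came from separate litters, so p-values measure only the spread between these pools.

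The Hippo pathway is a kinase cascade through which cells read contact, polarity, stretch and tissue size. When the kinases MST1/2 and LATS1/2 are active, they phosphorylate YAP and TAZ, which are then held in the cytoplasm or degraded. When the kinases are quiet, YAP and TAZ enter the nucleus, bind TEAD proteins, which carry the DNA-binding domain, and raise the transcription of target genes. In the liver, YAP activity is known to favour biliary over hepatocyte fate. Transcript levels of the effectors do not report this phosphorylation or localisation.

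The reads recovered from the values, as described in the methods, numbered 23193537 to 26206374 in E16.5 libraries and 13093937 to 22643868 in E18.5 libraries. They cover the 49583 of 52550 genes whose reads came out whole in every library, so they are not the full depth. The labels call the cells cholangiocytes, and they were checked against marker lists. All 10 biliary markers, among them Sox9, Krt19 and Epcam, had reads in each library. Their summed levels were 731 to 2470 TPM (transcripts scaled by gene length and by the library total) in E16.5 libraries and 8060 to 13900 in E18.5 libraries. Spp1 made up most of the sum, with 469 to 1767 TPM in E16.5 libraries and 6629 to 12120 TPM in E18.5 libraries. Sox9 had 69.5 to 186 TPM and 353 to 465.5 TPM. The 9 hepatoblast markers matched, led by Alb, summed to 161000 to 203000 TPM in E16.5 libraries and 36700 to 86100 in E18.5 libraries. Replicate C of E16.5 stood apart with the lowest biliary sum (731 TPM) and the highest hepatoblast sum, and replicate B of E18.5 with the highest biliary and the lowest hepatoblast sum (13900 and 36700 TPM). In sorted pools, a change in the number of cells of a type and a change in RNA per cell cannot be told apart.

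At both stages all 10 genes were expressed, and all 10 were higher at E18.5. At E16.5 the order of mean levels ran from Cyr61 (142 TPM) through Amotl2 (76.9), Ctgf (76.5), Tead2 (69.3), Yap1 (45.9), Tead1 (36.7), Wwtr1 (17.5), Tead3 (12.4) and Tead4 (11.6) to Ankrd1 (10.8 TPM). In this order, the libraries of neighbours overlapped except between Cyr61 and Amotl2 and between Tead1 and Wwtr1. At E18.5 Cyr61 (392 TPM) was again first, followed by Tead2 (157), Amotl2 (136), Ctgf (133), Tead1 (83.2), Yap1 (76.4), Wwtr1 (43.1), Ankrd1 (34.2), Tead4 (25.4) and Tead3 (22.7 TPM). Here the neighbours whose libraries did not overlap were Ctgf and Tead1, and Yap1 and Wwtr1. The mean of Cyr61 lay above 97.1% of the 21819 protein-coding genes listed at E16.5 and above 99.3% at E18.5, and that of Ankrd1 above 60.0% and 77.3%.

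**Figure D1:**
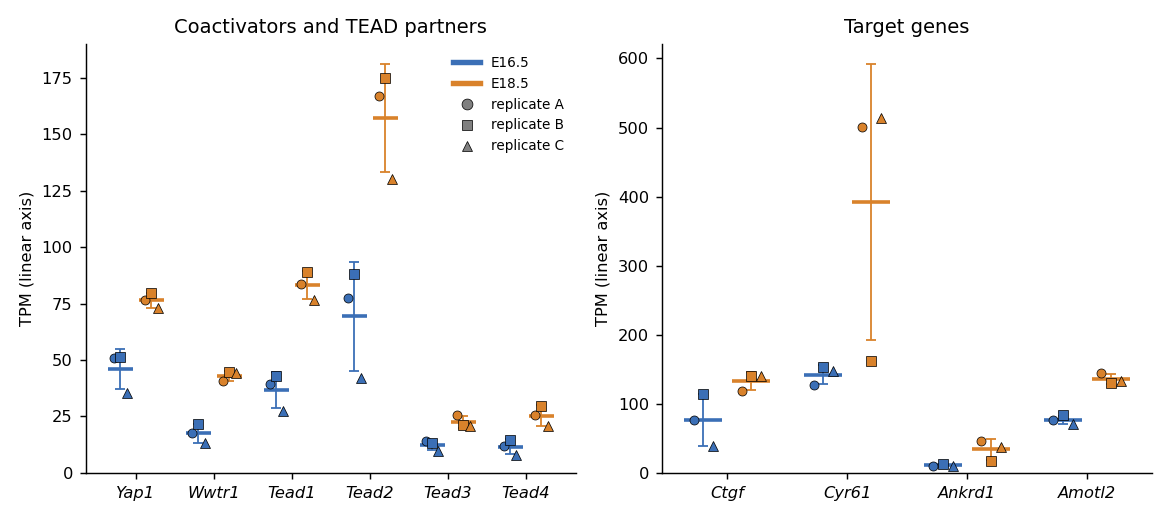
Level in TPM (linear axis) of the 6 effector genes (left) and the 4 target genes (right) in each library, with symbols for replicates A, B and C, a thick line for the stage mean and bars for 1 SD (n = 3). The E18.5 libraries lie above the E16.5 libraries for every gene, and for Cyr61 replicate B of E18.5 (162 TPM) lies close to the E16.5 values.

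The stages were compared gene by gene with limma on log2(TPM + 1), adjusting p by the Benjamini-Hochberg method over the 22452 genes that averaged 1 TPM or more, and a gene was called at an adjusted p under 0.05. Of the 10 genes, 8 were called higher at E18.5, against 26.0% of all genes tested. On TPM as deposited, every E18.5 library exceeded every E16.5 library for all 10, against 45.0% of all genes tested that were higher without overlap. Permuting the libraries of each gene exactly gave p = 0.1 (two-sided, difference of mean TPM) for all 10, the smallest that 3 libraries against 3 allow. The median log2 fold change of the 10 was 1.13, and that of all genes tested was 0.42, so the typical gene also had more TPM at the later stage. Median-of-ratios scaling, which centres the libraries on their typical gene, brought the median of all genes tested to 0.011 and that of the 10 to 0.68. All 10 kept a positive sign, but only Wwtr1 and Tead1 were still called, 2 of 10 against 6.44% of all genes tested. Quantile normalization, which also centres the typical gene (median of all genes tested 0.062), left 6 of the 10 called, against 8.53% of all genes tested: Wwtr1, Tead1, Yap1, Tead2, Tead4 and Amotl2. When E18.5 replicate A was left out of the unscaled fit, 3 genes rather than 8 were called (Amotl2, Tead1 and Wwtr1), and the share of all genes called higher was 4.63%. With E18.5 replicate B left out, Yap1, Tead2 and Tead4 missed the threshold (limma adjusted p of 0.0561 to 0.0626) and Cyr61 passed it, with 9.46% of all genes called higher.

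**Figure D2:**
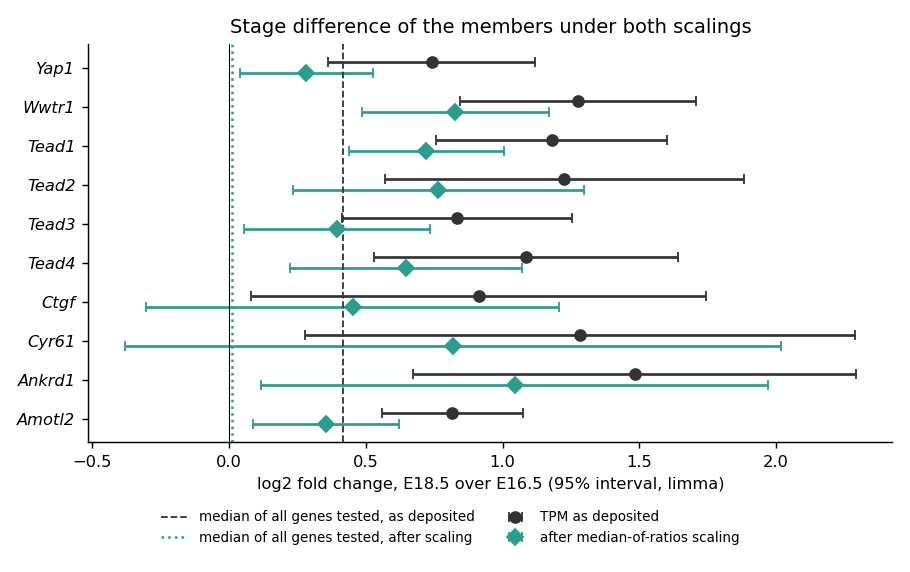
Log2 fold change of each gene, E18.5 over E16.5, with its 95% interval from limma, on TPM as deposited (circles) and after median-of-ratios scaling (diamonds), with vertical lines at the median of all genes tested (0.42 and 0.011). After scaling every gene stays right of 0, and the intervals of Ctgf and Cyr61 cross it.

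YAP and TAZ are paralogous coactivators without a DNA-binding domain of their own. Yap1 (ENSMUSG00000053110.13) lies on the reverse strand of chromosome 9 from 7931999 to 8004596 in GRCm38, with 9257 bp of exon sequence. In the order A, B, C, its E16.5 libraries had 50.8, 51.3 and 35.6 TPM and its E18.5 libraries 76.6, 79.5 and 73.0 TPM. The E18.5 libraries were close together and all above the highest E16.5 library. The rise from 45.9 ± 8.91 to 76.4 ± 3.23 TPM (SD, n = 3) was a log2 fold change of 0.74 (standard error 0.16, limma adjusted p = 0.0190), the smallest of the 10 genes. With median-of-ratios scaling it was 0.28 (limma adjusted p = 0.104).

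Wwtr1 (ENSMUSG00000027803.14), on the reverse strand of chromosome 3 from 57455649 to 57575910, had 17.6, 21.7 and 13.3 TPM at E16.5 and 40.5, 44.6 and 44.2 TPM at E18.5. The lowest E18.5 library was thus well above the highest E16.5 library. The log2 fold change was 1.28 (standard error 0.18, limma adjusted p = 0.00945), and with median-of-ratios scaling 0.83 (limma adjusted p = 0.0174). Wwtr1 and Tead1 were the genes called in all 15 alternative settings tried.

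The share of Wwtr1 in the pair was higher in each E18.5 library. Wwtr1 made up 25.8%, 29.7% and 27.2% of the summed Yap1 and Wwtr1 TPM in the E16.5 libraries, again from A to C, and 34.6%, 35.9% and 37.7% at E18.5. These shares are ratios within a library, which no scaling between libraries can move, and the stages did not overlap. The means were 27.5% ± 2.0 and 36.1% ± 1.54 (SD, n = 3), and the exact permutation test gave p = 0.1, the smallest possible. Yap1 transcripts remained the more abundant of the pair in each library, by 2.37-fold to 2.88-fold at E16.5 and by 1.65-fold to 1.89-fold at E18.5.

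The TEAD proteins share a TEA domain that binds DNA and a domain that binds YAP or TAZ, and differ in the tissues in which they are prominent. Tead2 (ENSMUSG00000030796.17, forward strand of chromosome 7, 45215753 to 45233644) was the most abundant of the 4. It had 77.7, 88.3 and 42.0 TPM at E16.5 and 167, 175 and 130 TPM at E18.5. Replicate C was the lowest library of each stage, yet that of E18.5 exceeded all of E16.5. The log2 fold change was 1.23 (standard error 0.28, limma adjusted p = 0.0212).

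Tead1 (ENSMUSG00000055320.17, forward strand of chromosome 7, 112679318 to 112906807) had 39.5, 43.0 and 27.6 TPM at E16.5 and 83.8, 89.2 and 76.6 TPM at E18.5, with every E18.5 library well above E16.5. Its log2 fold change was 1.18 (standard error 0.18, limma adjusted p = 0.0104). Tead4 (ENSMUSG00000030353.15, reverse strand of chromosome 6, 128224288 to 128300823), also known for its part in the early embryo's trophectoderm, had 12.1, 14.6 and 8.15 TPM at E16.5 and 25.7, 29.7 and 20.8 TPM at E18.5. The gap between the highest E16.5 and the lowest E18.5 library was narrower here, and the log2 fold change was 1.09 (limma adjusted p = 0.0189). Tead3 (ENSMUSG00000002249.19, reverse strand of chromosome 17, 28331671 to 28350817) had 14.0, 13.2 and 9.86 TPM at E16.5 and 25.8, 21.4 and 20.9 TPM at E18.5. It had the smallest rise of the 4, with a log2 fold change of 0.83 (limma adjusted p = 0.0183), and with median-of-ratios scaling 0.39 (limma adjusted p = 0.105). Tead2 (0.76, limma adjusted p = 0.0608) and Tead4 (0.65, limma adjusted p = 0.0521) also dropped out of the call with that scaling, whereas Tead1 stayed in it (0.72, limma adjusted p = 0.0158).

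The summed level of the 4 TEAD genes was 143, 159 and 87.7 TPM at E16.5 and 302, 315 and 248 TPM at E18.5. Every E18.5 library thus held more TEAD transcript than any E16.5 library, while the makeup of the sum showed no such separation. Tead2 gave 47.9% to 55.5% of the sum in E16.5 libraries and 52.4% to 55.5% in E18.5 libraries, and Tead1 27.0% to 31.5% and 27.7% to 30.9%. Tead3 gave 8.32% to 11.3% in E16.5 libraries and 6.78% to 8.52% in E18.5 libraries. Tead4 gave 8.46% to 9.30% and 8.38% to 9.44%. The shares of each of the 4 genes overlapped between the stages, with exact permutation p of 0.7 for Tead1, 0.6 for Tead2, 0.3 for Tead3 and 0.9 for Tead4.

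**Figure D3:**
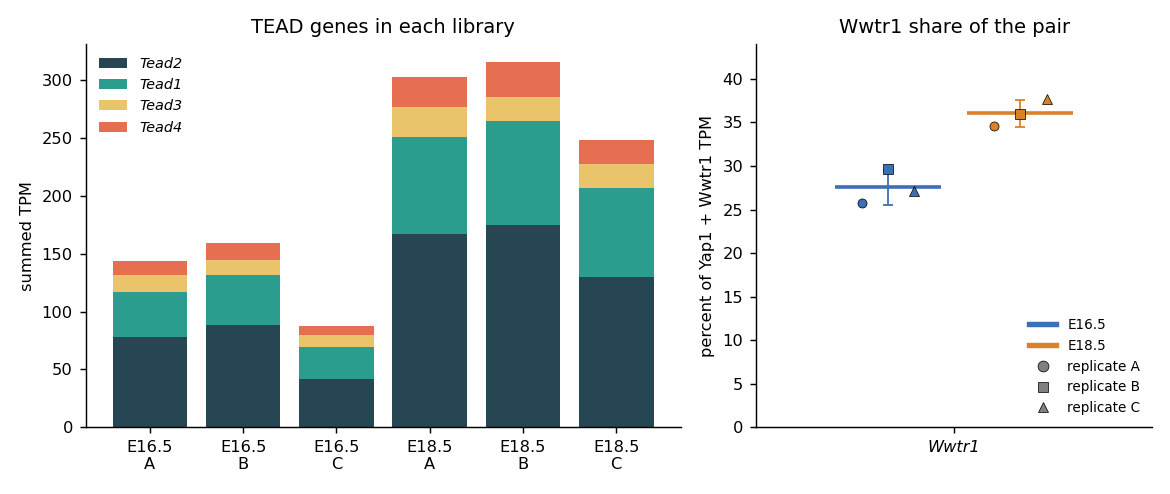
Left, TPM of the 4 TEAD genes stacked for each library, with Tead2 at the base and Tead4 on top. Right, Wwtr1 as a percentage of the summed Yap1 and Wwtr1 TPM in each library, with the stage mean and 1 SD (n = 3). Each E18.5 stack (248 to 315 TPM) is taller than each E16.5 stack (87.7 to 159 TPM) in similar proportions, and the Wwtr1 share is higher in every E18.5 library (34.6% to 37.7%) than at E16.5 (25.8% to 29.7%).

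The 4 target genes were next examined, first for the letters before their start sites. TEAD proteins recognise the letters GGAATG, or CATTCC when read on the other strand, strings that cannot overlap each other. The 250 bases before the RefSeq start (GRCm38.p6) were searched for both. Windows were matched for 7 of the 10 genes. Tead1, Tead4 and Ctgf were not matched. The letters were present in a window of 6 of the 7 genes, the exception being Tead2, and in all 3 targets matched. Of all 32851 windows of this length, 12.6% held them, as did a window of 14.4% of the 27025 genes. A match is a string of letters, not a measured binding site.

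The sites are shown with 12 bases on each side, 5′ to 3′ on the strand of the gene, since the 3 matched targets and the pair of coactivators all hold one (Tead3 also does and is not shown). Capitals mark the motif. The Cyr61 site lies at chr3:145650071-145650100, the Ankrd1 sites at chr19:36120037-36120066 and chr19:36119950-36119979, the Amotl2 site at chr9:102717727-102717756, the Yap1 site at chr9:8004720-8004749 and the Wwtr1 site at chr3:57576029-57576058. Those of Amotl2 and Ankrd1 fall inside an exon of longer GENCODE transcripts that start further upstream.
Cyr61 site: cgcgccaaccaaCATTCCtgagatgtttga
Ankrd1 distal site: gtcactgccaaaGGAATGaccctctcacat
Ankrd1 proximal site: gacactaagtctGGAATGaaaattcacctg
Amotl2 site: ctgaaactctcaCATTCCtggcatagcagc
Yap1 site: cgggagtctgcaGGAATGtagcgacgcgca
Wwtr1 site: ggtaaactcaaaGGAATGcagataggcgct

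The motif starts 103 bases before the start of Cyr61, 210 and 123 bases before that of Ankrd1, 65 before that of Amotl2, 141 before that of Yap1 and 136 before the more upstream of the starts of Wwtr1. Cyr61, the most abundant of the 10 genes, is shown with its whole window of 250 bases on the reverse strand at chr3:145649986-145650235, in which the motif is the only match.
Cyr61 upstream window: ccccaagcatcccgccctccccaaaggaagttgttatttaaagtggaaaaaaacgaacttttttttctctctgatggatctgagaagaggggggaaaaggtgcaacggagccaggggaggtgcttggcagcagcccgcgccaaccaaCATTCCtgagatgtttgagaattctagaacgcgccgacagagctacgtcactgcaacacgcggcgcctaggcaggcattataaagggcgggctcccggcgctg

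Amotl2 (ENSMUSG00000032531.15, forward strand of chromosome 9, 102716672 to 102733418) encodes an angiomotin family protein of cell junctions that binds YAP and restrains it. It had 76.03, 83.4 and 71.1 TPM at E16.5 and 144, 131 and 133 TPM at E18.5, the tightest values of the 4 targets. The log2 fold change was 0.82 (standard error 0.11), and its limma adjusted p of 0.00890 was the lowest of the 10 genes. With median-of-ratios scaling it was 0.35 (limma adjusted p = 0.0736).

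Ctgf (ENSMUSG00000019997.11, forward strand of chromosome 10, 24595442 to 24598683) encodes a secreted matricellular protein that is also induced by TGF-beta. It had 76.8, 114 and 38.8 TPM at E16.5 and 118, 140 and 140 TPM at E18.5. The E16.5 libraries spread over a 2.93-fold range, against 1.19-fold at E18.5, and the highest of them lay just under the lowest of E18.5. Its log2 fold change of 0.91 (standard error 0.35, 95% interval 0.081 to 1.74) missed the threshold (limma adjusted p = 0.0849). Without replicate B of E16.5, its highest library at that stage, the value was 1.26 (limma adjusted p = 0.0326), and without replicate C, its lowest, 0.50 (limma adjusted p = 0.116). In the annotation, 23.2% of the exon sequence of Ctgf is shared with the antisense gene Gm15270. The kit was strand-specific, but how strand was treated in counting is not given in the sources used here, so reads of the 2 genes may not have been told apart there.

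Cyr61 (ENSMUSG00000028195.4, reverse strand of chromosome 3, 145646976 to 145649981) encodes another secreted matricellular protein. It had 127, 153 and 147 TPM at E16.5 and 501, 162 and 514 TPM at E18.5. Replicates A and C of E18.5 thus stood far above every other library, while replicate B was just above the highest E16.5 value. The log2 fold change of 1.28 (standard error 0.43, 95% interval 0.28 to 2.29) missed the threshold (limma adjusted p = 0.0566). In the fit without that library it was 1.83 (limma adjusted p = 0.00957).

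Ankrd1 (ENSMUSG00000024803.8, reverse strand of chromosome 19, 36111961 to 36120099) encodes an ankyrin repeat protein best known from stretched heart muscle. It had 10.1, 12.8 and 9.45 TPM at E16.5 and 46.9, 17.7 and 38.0 TPM at E18.5. Replicate B was again the low library of E18.5, here still above all of E16.5. The log2 fold change of 1.48 was the largest of the 10 genes (standard error 0.34, limma adjusted p = 0.0220). Its call was lost with median-of-ratios scaling (1.04, limma adjusted p = 0.112), with quantile normalization (1.11, limma adjusted p = 0.0943) and when replicate A or C of either stage was left out, with an adjusted p of 0.0527 to 0.0672 in those 4 limma fits.

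Among the E18.5 libraries, replicate B was therefore far below A and C for Cyr61 and Ankrd1. It was also the lowest for Amotl2, but close to replicate C (131 and 133 TPM). For Ctgf and the 6 effectors it was not the lowest. The ratio of Ankrd1 to Amotl2 in a library was 0.325 and 0.285 in replicates A and C of E18.5, and 0.136 in replicate B, within the 0.133 to 0.153 of the E16.5 libraries. The tissue factor gene F3, a further YAP target named here after its values had been seen, had 18.3, 7.28 and 13.6 TPM, again lowest in replicate B. Of the 17 further targets tested, 4 were lowest and 8 highest of the E18.5 libraries in replicate B. Immediate early genes, which many cells switch on within minutes of a stimulus, include Cyr61 itself. Their transcripts were then examined in a list of 17 genes chosen after these values had been seen. Among the 17 were the heat-shock genes Hspa1a and Hspa1b. At E18.5, 15 of the 17 were lowest in replicate B, the exceptions being Hspa1a and Hspa1b. The summed level of the 17 was 4926, 1208 and 6203 TPM from A to C. Fos had 1005, 135 and 1263 TPM and Atf3 736, 68.8 and 956 TPM in the same libraries. At E16.5 the sum was 1672, 1728 and 3761 TPM, with 14 of the 17 genes highest in replicate C. The shares of all genes that were lowest in replicate B of E18.5 or highest in replicate C of E16.5 were not counted. On TPM as deposited, Cyr61 (147 TPM) lay between the other libraries in replicate C of E16.5 and Ankrd1 (9.45 TPM) was lowest. The median-of-ratios factor of that library was also low (0.77). The ratio of Cyr61 to Ctgf within a library was 1.653, 1.344 and 3.797 at E16.5 and 4.243, 1.156 and 3.669 at E18.5. Like the immediate early sum, it was highest in replicate C of E16.5 and lowest in replicate B of E18.5 within the stage. Ctgf itself was lowest in replicate C of E16.5 (38.8 TPM), and the ratio of Ankrd1 to Amotl2 was not raised there (0.1328). The part of the immediate early response in the values of Cyr61 and Ankrd1 was not tested, nor was that of the enzymatic dissociation of the livers before sorting.

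**Figure D4:**
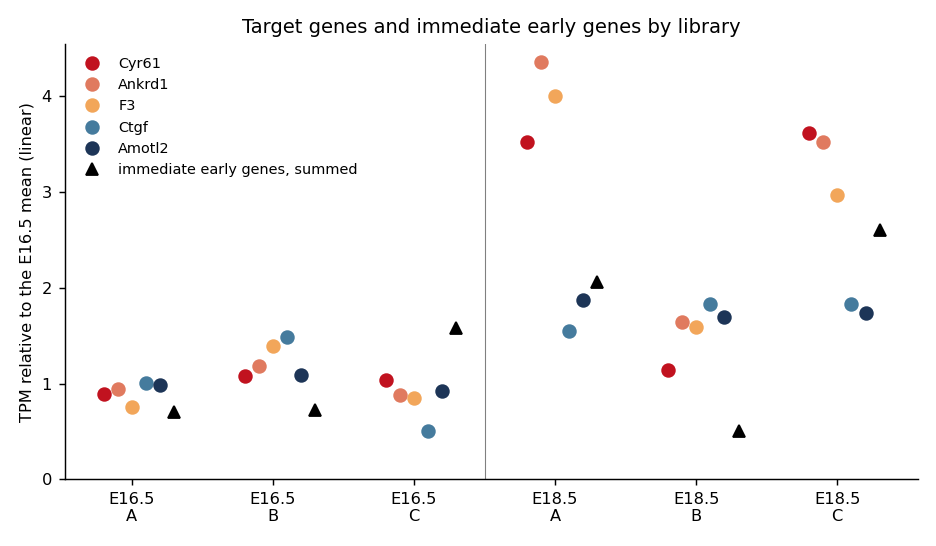
TPM of the 4 targets, of F3 and of the summed immediate early genes in each library, divided by the E16.5 mean of the same quantity (linear axis). Cyr61, Ankrd1 and F3 are lower in replicate B of E18.5 than in replicates A and C. On TPM as deposited, replicate B is still above each E16.5 library for Cyr61, Ankrd1 and F3, which does not hold after median-of-ratios scaling. The immediate early sum (1208 TPM) is also lowest in replicate B of E18.5, while Ctgf and Amotl2 span a 1.19-fold and a 1.10-fold range over the 3 E18.5 libraries.

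The genes upstream of YAP and TAZ were described from a list of 30 regulators, of which 26 reached a mean of 1 TPM. Of these 26, 18 were called higher at E18.5 and 1 lower, against 26.0% and 5.22% of all genes tested, and their median log2 fold change was 0.61. The largest rises were those of Ptpn14, a phosphatase that binds YAP (11.2 to 34.9 TPM, log2 fold change 1.62), the protocadherin genes Fat4 (4.95 to 14.8 TPM, 1.39) and Fat1 (94.9 to 231 TPM, 1.32), and Wwc1, which encodes the scaffold KIBRA (76.3 to 194 TPM, 1.37). Mob1b, a cofactor of the LATS kinases, was the gene called lower, from 43.0 to 24.9 TPM (log2 fold change -0.74, limma adjusted p = 0.0323), whereas its paralog Mob1a had 93.5 and 126 TPM and was not called (limma adjusted p = 0.0554).

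Among the core kinases, Lats2, itself induced by YAP, rose from 11.97 to 26.4 TPM (log2 fold change 1.09, limma adjusted p = 0.0105) and Lats1 from 72.0 to 106 TPM (0.55, limma adjusted p = 0.0228). Of the MST kinase genes, Stk3 rose from 26.0 to 36.0 TPM (0.45, limma adjusted p = 0.0373), while Stk4 had 76.2 and 59.2 TPM (-0.35, limma adjusted p = 0.181), and was called lower with median-of-ratios scaling (-0.81, limma adjusted p = 0.0478). Fat1, Wwc1 and Amot, which encodes a relative of AMOTL2, had the highest mean levels of the list, with 163, 135 and 113 TPM over the 6 libraries. Of the vestigial-like cofactors of TEAD, Vgll4, known to compete with YAP, rose from 26.2 to 51.9 TPM (0.97, limma adjusted p = 0.0113), and Vgll1, Vgll2 and Vgll3 had means under 1 TPM at each stage. With median-of-ratios scaling, 8 of the 26 regulators were called higher and 3 lower, against 6.44% and 10.5% of all genes tested, and their median was 0.15. Lats1 (0.091) and Stk3 (-0.0042) were then close to 0 and not called. The same held for Nf2, which encodes the upstream regulator merlin (-0.00082). Nf2 had also missed the threshold on TPM as deposited (0.46, limma adjusted p = 0.051). Without replicate A of E18.5, 5 regulators were called, without replicate B of E18.5, 9, and without replicate A of E16.5, 12, all higher, against 4.63%, 9.46% and 3728 of 22528 of all genes called higher in those fits.

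A further 18 target genes came from a YAP/TAZ signature defined in cancer cells, and 17 reached a mean of 1 TPM. Of these, 13 were called higher at E18.5 and 2 lower, against 26.0% and 5.22% of all genes tested, with a median log2 fold change of 1.09. The largest rises were those of Igfbp3, which encodes a carrier of insulin-like growth factors (13.0 to 51.5 TPM, 1.94), the matrix gene Ccdc80 (13.7 to 49.7 TPM, 1.76), Ptpn14 (1.62) and Fjx1 (19.4 to 51.4 TPM, 1.45). The genes called lower were Nt5e, which encodes the ectonucleotidase CD73 (13.0 to 4.28 TPM, -1.45, limma adjusted p = 0.0144), and Asap1 (69.8 to 29.7 TPM, -1.16, limma adjusted p = 0.0204). By mean level the list was led by Arhgef17 (80.3 TPM), Asap1 (49.8 TPM) and Myof (38.1 TPM). With median-of-ratios scaling, 4 of the 17 were called higher and 3 lower, against 6.44% and 10.5% of all genes tested, with a median of 0.65. Without replicate A of E18.5, 6 of them were called, all higher, against 4.63% of all genes. Without replicate B of E18.5, 6 were called higher and 2 lower, against 9.46% and 3.68%. Lats2 and Ptpn14 belong to both lists.

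Marker lists of the cells a pool could hold were read against the same 26.0% of all genes tested that were called higher and 5.22% lower. Of the 10 biliary markers, 9 were called higher, with a median log2 fold change of 1.65 and Sox9 itself at 1.68, and 4 still were with median-of-ratios scaling (median 1.22). Replicate C of E16.5 had the lowest biliary sum. It was also the lowest E16.5 library for 9 of the 10 Hippo genes, the exception being Cyr61. Its typical gene was low too, with a median-of-ratios factor of 0.77 against 0.94 and 0.89 in replicates A and B. The share of all genes that were lowest in that library was not counted. All 6 mesothelial markers were called higher, and their sum went from 4.55 to 12.3 TPM at E16.5 to 46.9 to 96.3 TPM at E18.5, led by Msln (1.04 to 30.0 TPM). For the mesenchyme, 3 of 10 markers tested were called higher (median 1.08), and the sum of 119 to 271 TPM at E16.5 overlapped with 263 to 735 TPM at E18.5, led by Col1a1. Igfbp3 and Ccdc80, like the mesenchymal sum, were highest in replicate C of E18.5 (75.8 and 70.1 TPM). For the endothelium, 2 of 10 markers were called higher, and the sums were 137 to 218 and 131 to 244 TPM. Of the 9 hepatoblast markers, 7 were called lower (median -1.69), and all 8 megakaryocyte markers were (median -4.32, 3190 to 9320 TPM in E16.5 libraries and 85.9 to 737 in E18.5 libraries). Mob1b, Stk4, Asap1 and Nt5e, like the megakaryocyte sum, were lowest in replicate B and highest in replicate C of E16.5. Among E18.5 libraries, that sum, Mob1b, Stk4 and Asap1 were highest in replicate B, and Nt5e was highest in replicate C. Of the 8 leukocyte markers, 1 was called higher (Csf1r, 21.5 to 41.9 TPM) and 2 lower (Coro1a and Laptm5), with a median of 0.37 and sums of 167 to 391 and 82.0 to 138 TPM, and erythroid markers summed to 205 to 274 and 96.3 to 551 TPM. None of the markers tested was at 0 in all libraries, and among those at 0 in some was Cd52. The part of these cells in the rise of the Hippo genes, or in the lower values of Mob1b, Stk4, Asap1 and Nt5e, was not tested.

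**Figure D5:**
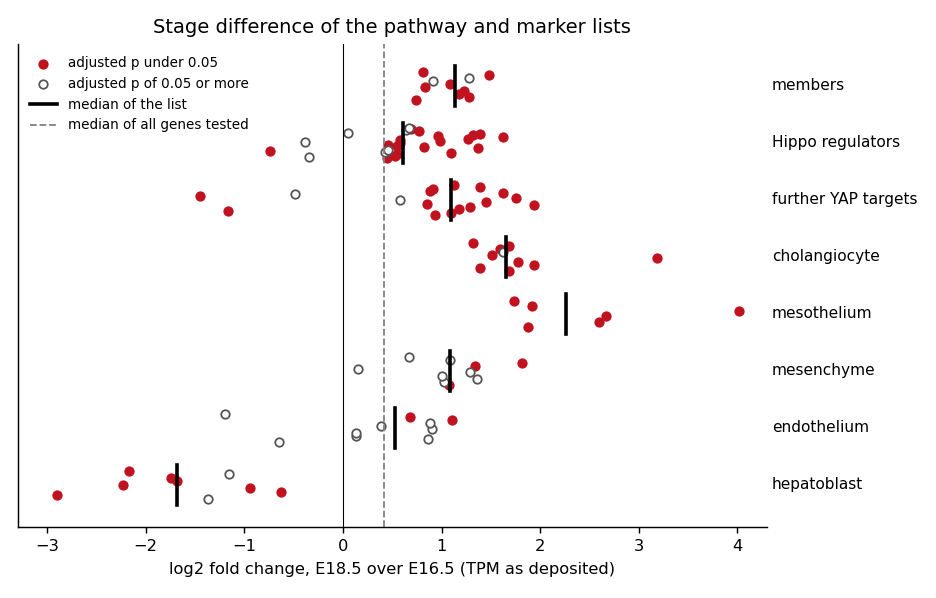
Log2 fold change (E18.5 over E16.5, TPM as deposited) of each gene tested in the 10 Hippo genes (members), the regulator and further target lists and 5 marker lists, filled where the limma adjusted p was under 0.05, with a bar at each list's median and a dashed line at the median of all genes tested (0.42). The Hippo genes lie between 0.74 and 1.48, below the biliary median of 1.65 and on both sides of the mesenchymal median of 1.08.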

How the data were processed

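Per the labels and the study's methods, the authors checked reads with FastQC 0.11.7, trimmed them, aligned them to GRCm38 with HISAT2 2.1.0, used HTSeq-count 0.5.4p3 and GENCODE vM15 for gene counts and deposited TPM, which sum to 1000000 in each library. Genes were named, placed and measured with GENCODE vM21 (52403 of 52550 identifiers matched). TPM times exon length, over the smallest such product of the library, gave whole reads (within 0.01) for 100% of the nonzero values of 49035 genes of unchanged version, including 8 of the 10 genes described, which had 234 to 7776 reads per library. Pairs of libraries of a stage differed by a chi-square of 15.1 or more per degree of freedom.

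The E18.5 and E16.5 libraries were set against each other in limma 3.58.1 under R 4.3.3 (trend, pseudocount 1, mean of at least 1 TPM, Benjamini-Hochberg adjustment over all genes), tested on simulated data beforehand. Exact permutation tests used scipy 1.17.1. The genes, lists and tests were chosen with earlier results of these data known. Of the regulators and further targets, those named have the 4 largest rises or falls called or the 3 highest means, and core kinases, Vgll and Mob1 genes, Nf2 and F3 were added after their values were seen. Alternatives were another pseudocount, filter, scaling or variance model, voom on the reads, the replicate letter as a block, and each library left out, and, chosen after seeing the data, replicate C of E16.5 and B of E18.5 left out together.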

Additional observations from a re-analysis of the deposited data

How the results depend on the processing

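All 148 values of the 10 genes over the alternatives stayed positive: 123 kept their side of the threshold, 21 lost a call and 4 gained one. With median-of-ratios scaling, 2 of the 10 genes, 11 regulators, 7 further targets and 3795 genes in all were called (38.1% of these higher, against 83.3% of 7000), and the median of the 10 was 0.68. With quantile normalization the counts were 6, 11, 8 and 3796 (50.5% higher), and the median 0.79. Without a filter 4282 of the 43310 genes tested were called. Without the trend 12 regulators were called, all higher, against 5064 of all 22452 genes tested. The cause of neither change was tested.

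With a library left out, 3 (E18.5 replicate A left out) to 9 of the 10 genes were called, 5 to 16 regulators, 6 to 14 further targets and 1472 to 5686 genes over the whole table, in fits with fewer samples. The median of the 10 genes ranged from 0.81 to 1.28. The lowest came without replicates C of E16.5 and B of E18.5, where 7 genes were called higher, against 2180 of all 22478 tested. Whether the replicate letters pair the libraries is not settled by these data. Deviations from the stage means correlated between the stages at -0.043, 0.081 and 0.14 for A, B and C. For unlike letters the correlations were -0.146 to 0.084. With the replicate block, 8 of the 10 genes and 7314 of 22452 in all were called. With voom on recovered reads, 6 of 8 genes were called, all higher, against 4203 of all 20425 genes tested in that fit. Tead3 and Ankrd1 could not be fitted, since their reads did not come out whole. Of the genes with whole reads, Tead4 rested on the fewest, 234 to 633 per library.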
